A study of Homo sapiens with 6 samples.

Results

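The genes described here are 46 named genes of the hypoxia response and of glycolysis, chosen by symbol as the rows of the count table for regulators of the hypoxia-inducible factors (HIFs), for hypoxia targets and for glycolytic enzymes. They are 46 of the 57820 genes in the table, and all 46 passed the filter on low counts. They were measured by RNA-seq in 6 libraries of J82, an established line of human bladder cancer cells grown in DMEM with 10% FBS. Of these, 3 libraries were labelled as controls, which carried the vector per the study's methods, and 3 were labelled FOXC1 KO, in which the lentiviral CRISPR/Cas9 vector LentiCRISPRv2 had been used to disrupt FOXC1, the gene of a forkhead transcription factor. The methods describe puromycin selection and a check of knockout clones by western blot, and how many clones stand behind the 3 KO libraries is not given in the sources used here. No library was labelled as grown in low oxygen, and the oxygen level of the cultures is not given in the sources used here. Nothing says whether the 3 libraries of a group came from separate cultures, so the p-values measure the spread between these libraries, which may be technical.

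HIFs are pairs of an oxygen-regulated alpha subunit and a constitutive beta subunit. When oxygen is present, prolyl hydroxylases mark the alpha subunit for VHL, a ubiquitin ligase subunit that sends it for degradation, so that HIF activity is set largely at the protein level and cannot be read from the alpha subunit's transcript. When oxygen is low, HIFs bind hypoxia response elements and raise genes for blood vessel growth, pH control, mitophagy, collagen modification, glucose uptake and glycolysis. Many cancers keep glycolysis high even in oxygen.

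The 6 libraries held 18408134 to 25350908 counts each, of which 2.07% to 2.70% came from mitochondrially encoded genes. The targeted gene was examined first. The FOXC1 transcript was not reduced under the KO label, with 18.2 ± 1.21 CPM (counts scaled to library size) in control and 22.5 ± 1.495 CPM in KO libraries (SD, n = 3), and its log2 fold change was 0.30 ± 0.091 (SE), at an adjusted p of 0.0127 by edgeR. Transcript level therefore does not check the labels, and every direction below sets libraries labelled FOXC1 KO against those labelled control. The study reports less FOXC1 protein by western blot in its J82 knockout cells. Control 1 held the highest value of the 6 libraries for 21.3% of all tested genes, the largest such share. Of the markers for the cell line, keratins 7, 8, 18 and 19 and all 4 mesenchymal markers (VIM, CDH2, ZEB1 and FN1) were present, while E-cadherin (CDH1), the 4 uroplakins and the 4 basal markers were under 1 CPM in both groups. Called lower in KO libraries were 4 of the 6 epithelial markers and the luminal factors GATA3 and PPARG, and ZEB1 was called higher. By the same rule, given below, 8.39% of all tested genes were called lower and 7.57% higher. The summed level of the epithelial list was 3020 to 3841 CPM in control and 2369 to 2648 CPM in KO libraries. Of the other cell types, 4 of 5 leukocyte, 2 of 2 matched endothelial and 3 of 3 erythroid markers were under 1 CPM in both groups, with CD14 as the exception. CD14 rose from 3.52 to 5.38 CPM and the endothelial marker CDH5 from 0.0131 to 0.932 CPM, and the summed levels in control and KO libraries were 3.32 to 4.23 and 5.23 to 6.16 CPM for the leukocyte list and 0.134 to 0.275 and 0.991 to 1.304 CPM for the endothelial list. The part of these marker differences in the results below was not tested.

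The hypoxia and glycolysis genes that changed between the groups did so in both directions. A gene was called when its adjusted p was under 0.05 in the quasi-likelihood test of edgeR and its fold change was over 1.3. By this rule 7 of the 46 genes were higher in the libraries labelled FOXC1 KO (15.2%, beside 7.57% of the 15647 tested genes) and 3 were lower (6.52%, beside 8.39% of the tested genes). The genes that rose were ANGPTL4, ARNT2, VEGFA, CA9, ALDOC, NDRG1 and SLC2A1, and those that fell were ANKRD37, EGLN3 and SLC2A3. Without KO 1, 5 of the 46 genes were called lower. At an adjusted p under 0.05 and any fold change, 10 of the 46 genes were higher (21.7%, beside 15.2% of all tested genes) and 10 were lower (21.7%, beside 14.3%), and the other 26 did not pass. Control and KO values were fully separate for 21 of the 46 genes (45.7%), which is near the 41.3% among all tested genes. The median log2 fold change of the 46 genes was -0.036, with 25 below zero (0.025 with 20 below zero without control 1), beside -0.00084 for all tested genes with 50.1% below zero. In bulk RNA, fewer cells that express a gene and less RNA per cell cannot be told apart.

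**Figure D1:**
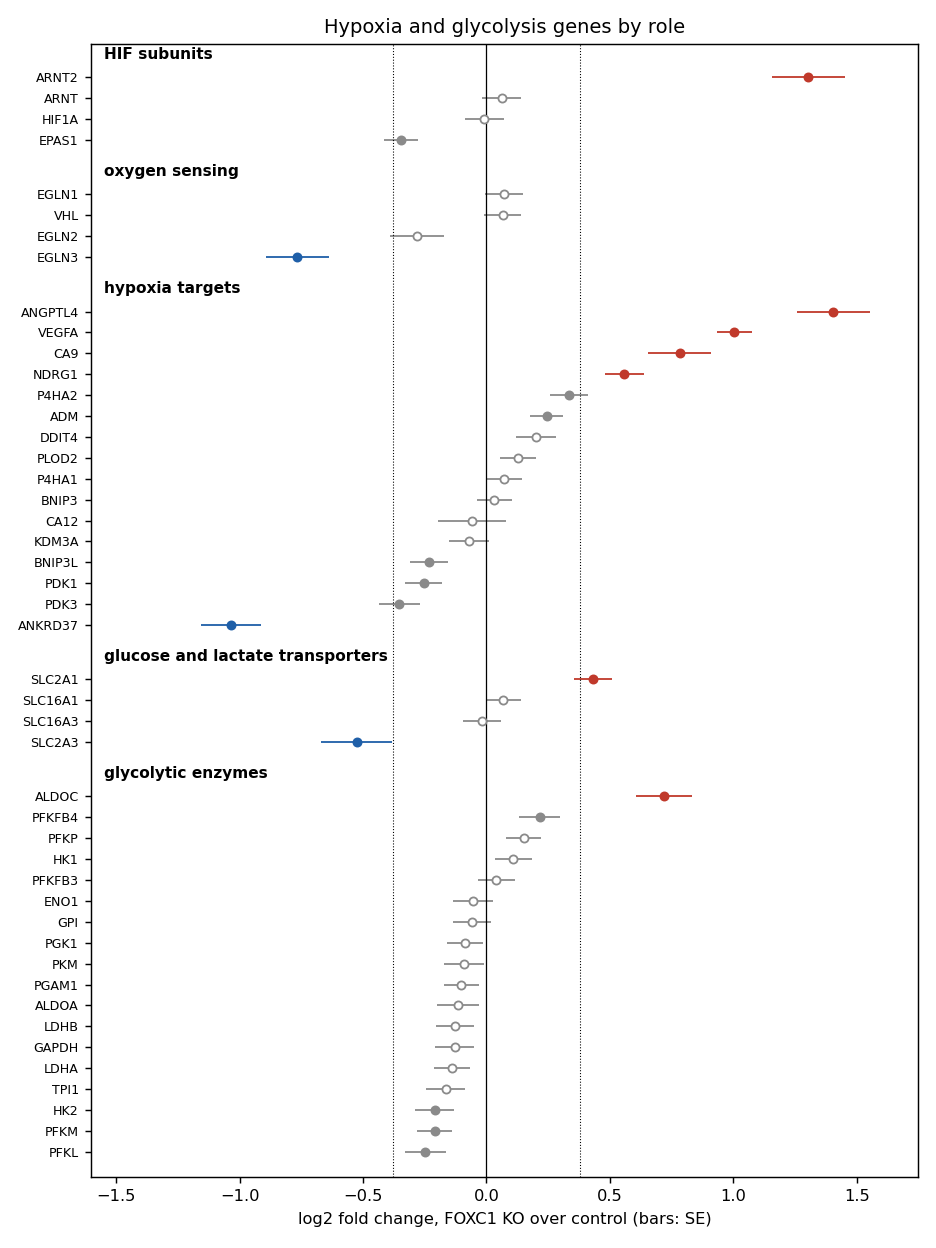
Log2 fold change of each of the 46 genes, FOXC1 KO over control, on the horizontal axis with bars of 1 SE, grouped by role and ordered by size within a role. Red and blue points are genes called higher and lower, filled gray points passed the adjusted p at under 1.3-fold (dotted lines), and open points did not pass. The 18 glycolytic enzymes lie between -0.25 and 0.72 and the 16 hypoxia targets between -1.03 and 1.40.

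Of the called genes, 6 had an entry in the RefSeq promoter table (GRCh38.p14), and their promoters are printed because they belong to the genes on which the results turn, in both directions. Each window runs 5′ to 3′ on the gene's strand from 250 bases before the start of transcription to 50 bases after it. Capitals mark the core of the hypoxia response element, ACGTG or GCGTG, read on either strand, so that the reverse complements CACGT and CACGC are capitalised as well. ANGPTL4 lies at chr19:8363905-8364204 on the plus strand, ANKRD37 at chr4:185396591-185396890 on the plus strand and ALDOC at chr17:28576846-28577145 on the minus strand. CA9 lies at chr9:35673678-35673977 on the plus strand, EGLN3 at chr14:33951025-33951324 on the minus strand and SLC2A1 at chr1:42958819-42959118 on the minus strand.
ANGPTL4: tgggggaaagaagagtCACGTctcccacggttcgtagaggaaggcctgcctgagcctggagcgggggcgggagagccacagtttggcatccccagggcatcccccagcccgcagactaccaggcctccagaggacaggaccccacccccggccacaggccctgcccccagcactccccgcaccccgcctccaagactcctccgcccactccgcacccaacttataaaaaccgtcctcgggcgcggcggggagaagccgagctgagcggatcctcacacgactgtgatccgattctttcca
ANKRD37: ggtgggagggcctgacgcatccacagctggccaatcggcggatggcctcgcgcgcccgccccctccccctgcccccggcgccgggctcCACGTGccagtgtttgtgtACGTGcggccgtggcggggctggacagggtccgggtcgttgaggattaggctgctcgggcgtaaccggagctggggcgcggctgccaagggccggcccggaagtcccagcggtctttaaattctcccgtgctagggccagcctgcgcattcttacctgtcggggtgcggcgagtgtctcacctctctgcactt
ALDOC: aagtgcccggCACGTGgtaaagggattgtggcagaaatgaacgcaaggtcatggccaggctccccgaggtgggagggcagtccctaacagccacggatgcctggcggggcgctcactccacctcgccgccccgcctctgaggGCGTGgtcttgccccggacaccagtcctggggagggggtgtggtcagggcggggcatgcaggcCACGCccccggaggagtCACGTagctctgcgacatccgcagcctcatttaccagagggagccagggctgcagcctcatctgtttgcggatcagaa
CA9: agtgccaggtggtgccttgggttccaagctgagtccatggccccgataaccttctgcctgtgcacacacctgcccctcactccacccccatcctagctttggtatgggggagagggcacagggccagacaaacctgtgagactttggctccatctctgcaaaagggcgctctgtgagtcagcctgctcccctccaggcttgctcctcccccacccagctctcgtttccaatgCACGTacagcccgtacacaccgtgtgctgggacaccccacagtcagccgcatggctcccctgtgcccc
EGLN3: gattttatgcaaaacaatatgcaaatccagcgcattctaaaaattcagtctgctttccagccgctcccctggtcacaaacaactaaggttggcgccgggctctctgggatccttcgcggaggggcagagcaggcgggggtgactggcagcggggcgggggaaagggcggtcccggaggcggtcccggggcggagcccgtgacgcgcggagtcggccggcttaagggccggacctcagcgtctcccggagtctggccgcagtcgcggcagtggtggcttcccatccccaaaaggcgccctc
SLC2A1: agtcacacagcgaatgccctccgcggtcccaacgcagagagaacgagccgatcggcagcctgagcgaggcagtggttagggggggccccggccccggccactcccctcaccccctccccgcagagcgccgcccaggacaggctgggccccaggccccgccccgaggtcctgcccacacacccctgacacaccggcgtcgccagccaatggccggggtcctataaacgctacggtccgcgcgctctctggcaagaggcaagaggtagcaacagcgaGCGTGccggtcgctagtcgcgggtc

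The core was found in 5 of the 6 printed windows, and the EGLN3 window held none. It began 234 bases before the start in ANGPTL4 and 18 bases before it in CA9, in both on the opposite strand, and 25 bases after the start in SLC2A1. ANKRD37 held 3 cores, at 162, 161 and 143 bases before the start, and ALDOC held 5, at 240, 239, 108, 45 and 28 bases before it. The first pair in each of these 2 genes is the palindrome CACGTG, which counts on both strands with overlapping letters. Genes that rose and the gene ANKRD37 that fell thus both held the core. Across the 46 genes, 39 had at least 1 window and 35 of these held a core in some window. By window, 46 of 68 (67.6%) held a core, beside 48.4% of the 34943 windows in the table, and the median GC content was 68.8% in the windows of these genes and 58.7% in all windows. The forkhead motif GTAAACA, searched on both strands, was in 0 of the 68 windows and in 3.42% of all windows. These matches describe letters in a window of 300 bases, not binding.

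Among the HIF subunits, HIF1A was abundant and did not pass the test, EPAS1 was somewhat lower in KO libraries, and the neuronal-type beta subunit gene ARNT2 rose from a low level. HIF1A, which encodes HIF-1 alpha, had 792, 847 and 831 CPM in control libraries 1 to 3 and 758, 758 and 940 CPM in KO libraries 1 to 3. The groups overlapped, with KO 3 highest, and the log2 fold change was -0.01 ± 0.079 (SE), at an adjusted p of 0.951. It held rank 188 of the tested genes by level per length over all libraries, control and KO. In control libraries this level was 159.9 ± 5.45 CPM per kilobase of exon (SD, n = 3). ARNT2 (ENSG00000172379.14, chromosome 15, 80696692 to 80890274, GRCh37, plus strand) had 2.27, 2.42 and 2.40 CPM in control and 5.87, 6.42 and 5.23 CPM in KO libraries. Each KO value lay above each control value, and the log2 fold change was 1.304 ± 0.15 (SE), at an adjusted p of 5.49e-08. These values rest on 51 to 162 counts per library.

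EPAS1, which encodes HIF-2 alpha, was 193.5 ± 3.79 CPM in control and 152.2 ± 5.44 CPM in KO libraries (SD, n = 3). The KO values lay below the control values, and the log2 fold change was -0.35 ± 0.068 (SE), at an adjusted p of 0.000224. At 1.27-fold it was under the threshold. It passed that threshold without KO 1, at -0.38 on the log2 scale. ARNT, the gene of the common beta subunit HIF-1 beta, had 49.0 ± 3.95 and 51.1 ± 0.494 CPM (SD, n = 3), with an adjusted p of 0.599. Within a library, the count ratio of ARNT2 to ARNT was higher in KO libraries by 1.24 on the log2 scale and that of EPAS1 to HIF1A differed by -0.33, and in both the groups did not overlap. Per kilobase of exon ARNT2 made up 3.44% to 4.25% of the ARNT and ARNT2 sum in control and 7.87% to 9.39% in KO libraries, so ARNT remained the more abundant of the pair in each library.

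Oxygen sensing was carried by 4 measured genes, of which EGLN3 fell and the other 3 did not pass the test. EGLN3 (ENSG00000129521.9, chromosome 14, 34393433 to 34931980, GRCh37, minus strand) encodes the prolyl hydroxylase PHD3, itself a gene raised by HIF in low oxygen. It had 7.35, 7.25 and 6.56 CPM in control and 3.70, 4.16 and 4.503 CPM in KO libraries, from 68 to 177 counts per library. Each KO value lay below each control value, with a log2 fold change of -0.77 ± 0.13 (SE), at an adjusted p of 3.4e-05. The annotated span of EGLN3 overlaps SPTSSA on the same strand, which had 7664 counts over the 6 libraries against 788 for EGLN3 and a log2 fold change of 0.25 (adjusted p 0.392). Reads shared by them cannot be told apart in these counts.

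EGLN1 encodes PHD2, the main oxygen-dependent hydroxylase of HIF-1 alpha, and had the highest CPM of this group. It had 71.4, 81.4 and 74.9 CPM in control and 85.2, 73.0 and 81.1 CPM in KO libraries, which overlapped (log2 fold change 0.07, SE 0.077, adjusted p 0.538). VHL was 74.6 ± 2.79 and 78.2 ± 6.35 CPM (SD, n = 3), with an adjusted p of 0.554. EGLN2, which encodes PHD1, was 12.9 ± 0.473 and 10.6 ± 1.61 CPM (SD, n = 3), and its log2 fold change of -0.28 missed the threshold at an adjusted p of 0.0523. EGLN2 was called lower without KO 2, at -0.42 on the log2 scale. The count ratio of EGLN3 to EGLN1 was lower in each KO library than in any control library, with a log2 difference of -0.85.

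Hypoxia targets held 5 of the 10 called genes, with 4 of 16 higher (25%, beside 7.57% of all tested genes) and 1 lower (6.25%, beside 8.39%), and a median log2 fold change of 0.098. Secreted and membrane proteins were among those that rose. VEGFA (ENSG00000112715.16, chromosome 6, 43737921 to 43754224, GRCh37, plus strand), the vascular endothelial growth factor, had 89.5, 99.9 and 97.0 CPM in control and 191.8, 196.2 and 186.3 CPM in KO libraries. The groups were far apart against a spread of 5.35 and 4.99 CPM (SD, n = 3), and the log2 fold change was 1.004 ± 0.070 (SE), at an adjusted p of 3.51e-12. Of the 10 called genes, VEGFA had the smallest adjusted p. Leaving out any 1 library kept its log2 fold change between 0.95 and 1.03.

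ANGPTL4 (ENSG00000167772.7, chromosome 19, 8428173 to 8439254, GRCh37, plus strand) encodes angiopoietin-like 4, an inhibitor of lipoprotein lipase, and showed the largest log2 fold change of the 46 genes. It had 2.67, 1.97 and 2.36 CPM in control and 5.76, 6.26 and 6.42 CPM in KO libraries, from 48 to 158 counts per library. The groups did not overlap, and the log2 fold change was 1.40 ± 0.15 (SE), at an adjusted p of 1.54e-08. CA9 (ENSG00000107159.8, chromosome 9, 35673925 to 35681156, GRCh37, plus strand) encodes carbonic anhydrase IX, a cell surface enzyme of pH control that is widely used as a marker of hypoxia. It had 7.04, 5.08 and 4.83 CPM in control and 9.45, 9.79 and 9.77 CPM in KO libraries. Each KO value lay above each control value, of which control 1 was the highest, and the log2 fold change was 0.78 ± 0.13 (SE), at an adjusted p of 2.16e-05. Without control 1 it was 0.96. ARHGEF39 overlaps CA9 on the opposite strand, with 2002 counts over the libraries against 1056 for CA9 and a log2 fold change of -0.19 (adjusted p 0.164).

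CA12, the gene of carbonic anhydrase XII, did not pass the test at 4.93 ± 0.591 and 4.74 ± 0.354 CPM (SD, n = 3; adjusted p 0.789). Its log2 fold change was -0.06, and 0.03 without control 1. The count ratio of CA12 to CA9 was lower in each KO library than in any control library, with a log2 difference of -0.85. Per kilobase of exon, CA12 made up 15.4% to 17.8% of the pair in control and 9.20% to 10.8% in KO libraries. This share depends on the exon lengths taken, 6998 bases for CA12 and 1598 for CA9. NDRG1 (ENSG00000104419.10, chromosome 8, 134249418 to 134314265, GRCh37, minus strand), a stress-responsive gene raised in low oxygen, had 76.8, 63.1 and 66.5 CPM in control and 97.4, 106.6 and 99.7 CPM in KO libraries. Again the groups did not overlap, and NDRG1 rose with a log2 fold change of 0.56 ± 0.078 (SE), at an adjusted p of 2.15e-06.

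ANKRD37 (ENSG00000186352.4, chromosome 4, 186317175 to 186321782, GRCh37, plus strand), which encodes an ankyrin repeat protein and is a direct HIF-1 target, fell the most of the 46 genes. It had 11.5, 9.58 and 9.51 CPM in control and 4.999, 4.84 and 5.10 CPM in KO libraries, from 92 to 259 counts. The KO values were all below the control values, and the log2 fold change was -1.03 ± 0.12 (SE), at an adjusted p of 9.72e-08. UFSP2 overlaps ANKRD37 on the opposite strand, with 2911 counts over the libraries against 1069 and a log2 fold change of 0.07 (adjusted p 0.594). ANKRD37 and CA9, both known targets of HIF-1, thus moved in opposite directions.

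**Figure D2:**
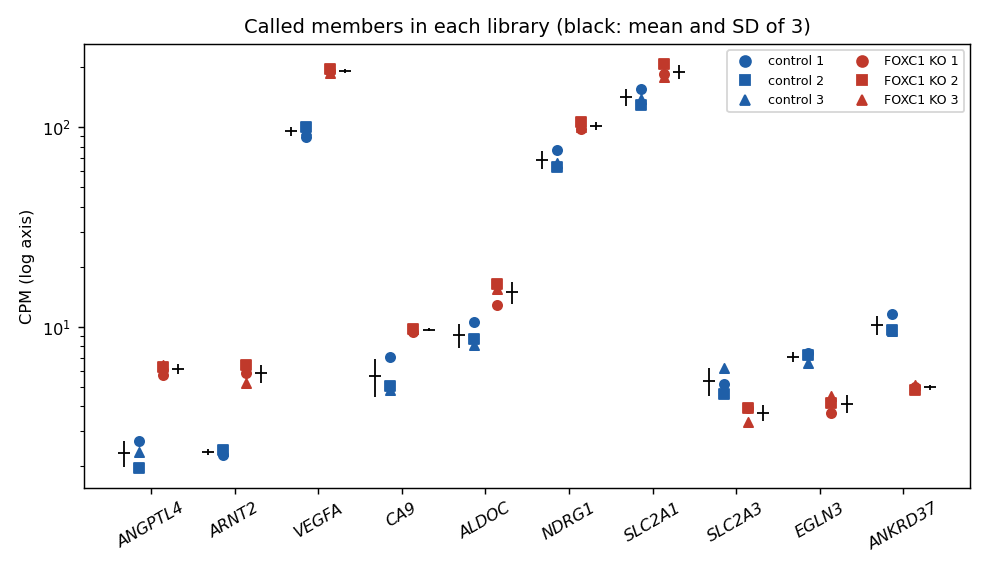
CPM of the 10 called genes in each library (log axis), with blue for control and red for FOXC1 KO, a symbol for each replicate number, and black marks for the mean and SD of 3 libraries. In each of the 10 genes all KO points lie on the same side of all control points. The genes were called in these same libraries, so this separation is no further support. Among all tested genes, called or not, 41.3% did not overlap. The control means range from 2.33 (ANGPTL4) to 141.1 CPM (SLC2A1).

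The other 11 hypoxia targets were not called. Adrenomedullin (ADM), a vasodilator peptide, was 205.6 ± 4.52 and 243.6 ± 3.63 CPM (SD, n = 3), and its log2 fold change was 0.24 at an adjusted p of 0.0058. P4HA2, a prolyl 4-hydroxylase subunit of collagen synthesis, was 64.8 ± 6.95 and 81.8 ± 0.591 CPM (SD, n = 3), and its log2 fold change was 0.34 at an adjusted p of 0.00153. Both were higher in each KO library than in any control library, and P4HA2 was called higher without control 1, at 0.41 on the log2 scale. SLC22A4, which overlaps P4HA2 on the opposite strand with 1173 counts over the libraries against 10162, had a log2 fold change of 0.94 (adjusted p 1.38e-07).

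The genes of the pyruvate dehydrogenase kinases PDK1 and PDK3, which inhibit pyruvate dehydrogenase, and the mitophagy receptor gene BNIP3L lay on the other side. PDK1 was 72.3 ± 3.13 and 60.7 ± 3.64 CPM (SD, n = 3), and its log2 fold change was -0.25 at an adjusted p of 0.0109. PDK3 was 31.9 ± 0.429 and 25.01 ± 1.51 CPM (SD, n = 3), and its log2 fold change was -0.35 at an adjusted p of 0.00174. It was called lower without KO 1, at -0.40. BNIP3L was 115.5 ± 7.41 and 98.2 ± 8.33 CPM (SD, n = 3), and its log2 fold change was -0.23 at an adjusted p of 0.0202. In all 3 genes each KO library was below each control library, at under 1.3-fold in the fit to all 6 libraries. Over the alternatives the adjusted p reached 0.0934 for PDK1 and 0.115 for BNIP3L.

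PLOD2, a lysyl hydroxylase of collagen crosslinking, had the highest CPM among the hypoxia targets. It had 392.03, 409.7 and 417.9 CPM in control and 444.2, 403.2 and 483.9 CPM in KO libraries, which overlapped (log2 fold change 0.13, SE 0.073, adjusted p 0.20). DDIT4, an inhibitor of mTORC1 signalling, did not overlap between the groups at 26 ± 0.917 and 29.9 ± 0.440 CPM (SD, n = 3) but missed the threshold (adjusted p 0.0645, and 0.0387 without control 1). BNIP3, P4HA1 and the histone demethylase gene KDM3A overlapped between the groups, with log2 fold changes of 0.03, 0.07 and -0.07 and adjusted p of 0.773, 0.499 and 0.543. Pseudogenes named after BNIP3 held counts equal to 4.14% of its own, the largest such share among the 46 genes, and adding them changed no call among these genes. As a share of all counts, the 16 hypoxia targets took 0.144 ± 0.0048% in control and 0.163 ± 0.0069% in KO libraries (SD, n = 3). Each KO library was above each control library, and the two-sided exact permutation p was 0.1, the smallest that 3 libraries against 3 can give. Without VEGFA, a check added after the data were seen, the other 15 took 0.135 ± 0.0042% and 0.144 ± 0.0073% (SD, n = 3), which overlapped (exact permutation p 0.2).

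Glucose transporters changed in opposite directions while the lactate transporters did not pass the test. SLC2A1 (ENSG00000117394.15, chromosome 1, 43391024 to 43424564, GRCh37, minus strand) encodes GLUT1, the widespread basal glucose transporter. It had 156.3, 128.7 and 138.3 CPM in control and 185.5, 207.0 and 177.6 CPM in KO libraries. Each KO value lay above each control value, and the log2 fold change was 0.43 ± 0.077 (SE), at an adjusted p of 8.41e-05. SLC2A1 lay close to the fold change threshold and was not called without control 2 or without KO 2, at 0.36 on the log2 scale in each.

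SLC2A3 (ENSG00000059804.11, chromosome 12, 8071826 to 8171603, GRCh37, minus strand) encodes GLUT3, a transporter of high affinity. It had 5.17, 4.59 and 6.25 CPM in control and 3.91, 3.92 and 3.31 CPM in KO libraries, from 72 to 159 counts. The groups did not overlap, and SLC2A3 fell with a log2 fold change of -0.53 ± 0.15 (SE), at an adjusted p of 0.00664. The call was lost without control 3, its highest library, at -0.39 and an adjusted p of 0.0815. Pseudogenes named after SLC2A3 held counts equal to 2.83% of its own. Per kilobase of exon SLC2A3 made up 2.93% to 3.96% of the 2 transporters in control and 1.67% to 1.89% in KO libraries, and the log2 count ratio differed by -0.95 with no overlap. GLUT1 transcript was therefore the more abundant of the pair in each library.

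SLC16A3, which encodes the lactate exporter MCT4, had the highest CPM of the transporters. It had 367.8, 304.4 and 313.5 CPM in control and 323.9, 347.2 and 302.4 CPM in KO libraries, which overlapped (log2 fold change -0.02, SE 0.076, adjusted p 0.89), and without control 1 the log2 fold change was 0.06. SLC16A1, which encodes MCT1, was 119.4 ± 4.31 and 125.3 ± 8.48 CPM (SD, n = 3; adjusted p 0.515). The log2 ratio of SLC16A3 to SLC16A1 differed by -0.08, and the groups overlapped. The 4 transporters together took 0.0596 ± 0.0039% of counts in control and 0.0642 ± 0.0030% in KO libraries (SD, n = 3; two-sided exact permutation p 0.2).

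Of the 18 glycolytic enzyme genes, 8 were among the most abundant transcripts of these cells, and 1 was called, ALDOC, which rose (5.56%, beside 7.57% of all tested genes). By level per length over all libraries, control and KO, GAPDH held rank 10 of the tested genes. Its level in control libraries was 1611 ± 146 CPM per kilobase (SD, n = 3). ENO1 held rank 38, LDHA rank 40, TPI1 rank 42, PKM rank 47, ALDOA rank 56, PGK1 rank 62 and LDHB rank 80, and the other 10 enzymes ranked from 427 (PGAM1) to 7200 (ALDOC). Besides ALDOC, 4 enzymes passed the adjusted p at under 1.3-fold. The median log2 fold change was -0.096, with 13 of 18 below zero. Control 1 was the highest library for 12 of the 18 enzymes, and without it the median was -0.025 with 10 of 18 below zero.

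ALDOC (ENSG00000109107.9, chromosome 17, 26900133 to 26903966, GRCh37, minus strand) encodes aldolase C, the brain-type isozyme. It had 10.5, 8.68 and 8.10 CPM in control and 12.8, 16.3 and 15.5 CPM in KO libraries, from 206 to 412 counts. Each KO value lay above each control value, with a log2 fold change of 0.72 ± 0.11 (SE), at an adjusted p of 1.4e-05. ALDOA, the common isozyme, had 1485 ± 202 and 1372 ± 118 CPM (SD, n = 3) with an adjusted p of 0.333. Per kilobase of exon ALDOC remained a small share of the pair, 0.871% to 0.908% in control and 1.43% to 1.69% in KO libraries. The log2 count ratio of ALDOC to ALDOA was higher in KO libraries by 0.82 with no overlap.

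In the upper part of the pathway, the hexokinase gene HK2 was 39.9 ± 1.04 and 34.5 ± 1.32 CPM (SD, n = 3), and its log2 fold change was -0.21 at an adjusted p of 0.045. HK1, the constitutive hexokinase gene, was 215.9 ± 23.3 and 232.9 ± 5.58 CPM (SD, n = 3; log2 fold change 0.11, adjusted p 0.286). The log2 ratio of HK2 to HK1 was lower in each KO library than in any control library, with a difference of -0.32. Phosphofructokinase, the main control point of the pathway, is encoded by PFKL, PFKM and PFKP, whose log2 fold changes lay on both sides of zero. PFKL and PFKM had log2 fold changes of -0.25 and -0.21 (adjusted p 0.0255 and 0.0222), while PFKP was 484.4 ± 38.4 and 537.5 ± 23.5 CPM (SD, n = 3; log2 fold change 0.15, adjusted p 0.118). Without control 1 the adjusted p was 0.157 for PFKL, 0.0155 for PFKP and 0.0247 for HK1, and over the alternatives that of PFKM reached 0.0859 and that of HK2 0.193.

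The PFKP to PFKL ratio was higher in KO libraries by 0.39 on the log2 scale with no overlap, and PFKP made up 84.5% to 86.1% of that pair per kilobase of exon in control and 88.3% to 88.7% in KO libraries. The ratio of PFKM to PFKL overlapped between the groups, with a log2 difference of 0.03. PFKFB3 and PFKFB4 encode bifunctional enzymes that set fructose 2,6-bisphosphate, the activator of phosphofructokinase. PFKFB4 was 47.3 ± 4.32 and 54.9 ± 4.08 CPM (SD, n = 3), which overlapped, and had a log2 fold change of 0.22 and an adjusted p of 0.0487, which reached 0.222 over the alternatives. UCN2 overlaps PFKFB4 on the same strand, with 810 counts over the libraries against 7098 and a log2 fold change of 0.35 (adjusted p 0.0486). PFKFB3 was 91.0 ± 7.36 and 93.5 ± 4.02 CPM (SD, n = 3; adjusted p 0.739).

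**Figure D3:**
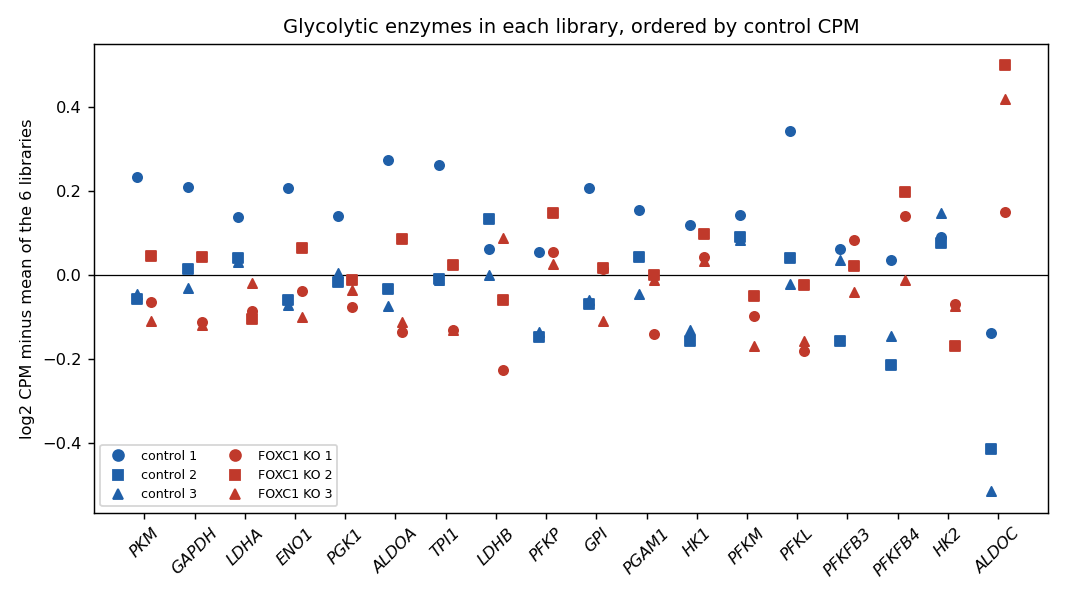
Log2 CPM of each of the 18 glycolytic enzyme genes in each library, minus the mean of the 6 libraries, with blue for control, red for FOXC1 KO and a symbol for each replicate number, ordered by control CPM. Control 1 (blue circle) is the highest library for 12 of the 18 genes, and ALDOC at the right is the 1 gene called.

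In the lower part of the pathway no enzyme gene passed the test. PKM, the pyruvate kinase gene with the highest CPM of the 18, had 4608, 3766 and 3796 CPM in control and 3752, 4041 and 3635 CPM in KO libraries. Control 1 was the highest and the groups overlapped (log2 fold change -0.09, SE 0.082, adjusted p 0.441), and without it the log2 fold change was 0.0027. LDHA, the lactate dehydrogenase subunit that is raised in hypoxia, had 3398, 3178 and 3155 CPM in control and 2913, 2875 and 3048 CPM in KO libraries. Its groups did not overlap, with KO below control, but the log2 fold change of -0.14 missed the threshold (SE 0.073, adjusted p 0.155). LDHB was 932.4 ± 43.1 and 854.1 ± 92.3 CPM (SD, n = 3; adjusted p 0.229), and the log2 ratio of LDHA to LDHB differed by -0.01 with overlap. The remaining genes were TPI1, GAPDH, PGK1, PGAM1 and ENO1, and GPI of the upper part. Their log2 fold changes lay between -0.16 and -0.05 and their adjusted p between 0.12 and 0.663. Without control 1 the log2 fold changes of GPI and ENO1 were 0.03.

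The 18 enzymes together took 2.31%, 2.07% and 2.06% of all counts in control libraries and 1.95%, 2.08% and 1.95% in KO libraries. The groups overlapped at 2.14 ± 0.144% and 1.99 ± 0.0754% (SD, n = 3), with a two-sided exact permutation p of 0.3. By level per length the 10 called genes lay between 0.305 (ARNT2) and 21.3 (SLC2A1) CPM per kilobase in the control mean. Genes that were not called lay in this range as well, such as CA12 (0.705) and VHL (14.9), and others lay above it. The 8 enzymes with a rank of 80 or less, picked for that rank, lay between 312.6 (LDHB) and 1611 (GAPDH).

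**Figure D4:**
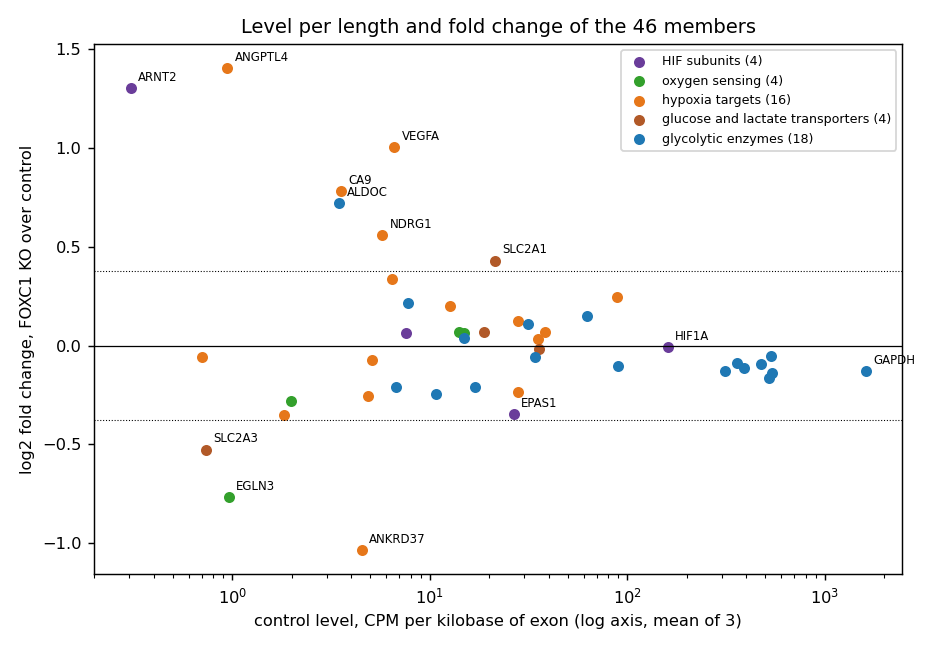
Control level per length on the horizontal axis (CPM per kilobase of exon, log axis, mean of 3 libraries) against log2 fold change, FOXC1 KO over control, on the vertical axis, for the 46 genes coloured by role. Dotted lines mark 1.3-fold. The 10 called genes, and also some genes not called, lie at or below 21.3 CPM per kilobase, and GAPDH lies at 1611.

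Ratios of related genes within a library do not depend on how libraries are scaled. Of 15 pairs compared, 11 did not overlap between the groups and 4 did. The share among ratios of other gene pairs was not computed, so this count has no background of its own. Among all tested genes, taken singly, 41.3% did not overlap. Each of the 11 had a two-sided exact permutation p of 0.1, the smallest that 3 libraries against 3 can give, and 0.136 after Benjamini-Hochberg adjustment over the 15 pairs. Besides the pairs above, the log2 ratio was 0.27 higher in KO libraries for P4HA2 to P4HA1 and 0.17 higher for PFKFB4 to PFKFB3, and the difference for BNIP3L to BNIP3 was -0.26. The ratio of PDK3 to PDK1 overlapped, with a log2 difference of -0.10. The larger differences were those of ARNT2 to ARNT, SLC2A3 to SLC2A1, CA12 to CA9, EGLN3 to EGLN1 and ALDOC to ALDOA. Each of these pairs has at least 1 member called in the same libraries, so their ratios are not a result separate from the calls.

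**Figure D5:**
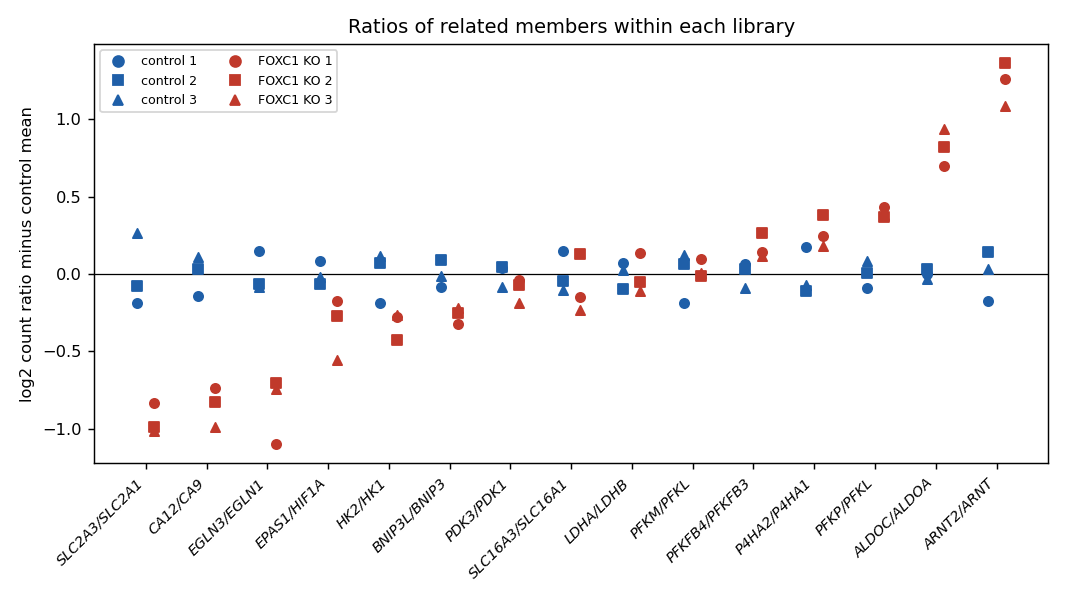
Log2 count ratio of the first to the second gene of each of 15 pairs in each library, minus the control mean, with blue for control, red for FOXC1 KO and a symbol for each replicate number. The differences run from -0.95 (SLC2A3 to SLC2A1) to 1.24 (ARNT2 to ARNT), and red and blue points overlap in 4 pairs in the middle.

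Other genes of the same pathways were then counted, from lists of 119 further genes, of which 99 were tested. In libraries labelled FOXC1 KO, 15 of these were lower (15.2%, beside 8.39% of all tested genes) and 6 higher (6.06%, near the 7.57% of all tested genes), with a median log2 fold change of -0.017. Among 36 other hypoxia targets 6 rose (16.7%, beside 7.57%) and 7 fell (19.4%, beside 8.39%). STC1, which encodes the secreted hormone stanniocalcin-1, AK4, a mitochondrial adenylate kinase gene, and TMEM45A rose with log2 fold changes of 0.61, 0.53 and 0.48. FLT1, which encodes the VEGF receptor VEGFR1, fell, against the direction of its ligand gene VEGFA. It had 3.45 ± 0.333 and 1.06 ± 0.071 CPM (SD, n = 3; log2 fold change -1.70, adjusted p 5.45e-08), from 20 to 91 counts per library.

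Regulators of HIF other than the 8 subunit and oxygen sensing genes above were not called in either direction, with 0 of 18 tested. Of all tested genes, 8.39% were called lower and 7.57% higher. At under 1.3-fold, 3 of the 18 had an adjusted p under 0.05 in edgeR. At an unadjusted p under 0.05 there were 6, and DESeq2 called 0 of the 18. Among 12 tested glycolysis isozymes and regulators of 26 listed, 2 were called, both lower (16.7%, beside 8.39% of all tested genes). FBP1, the fructose bisphosphatase of gluconeogenesis, fell from 15.5 ± 1.60 to 8.43 ± 0.656 CPM (SD, n = 3; log2 fold change -0.87, adjusted p 2.95e-07). PFKFB2 fell as well, with a log2 fold change of -0.48 (adjusted p 2.52e-05). Of 12 tested carriers of 16 listed, 2 were called, both lower (16.7%, beside 8.39% of all tested genes). EMB, the gene of embigin, a partner protein of lactate transporters, and SLC2A4, which encodes GLUT4, fell with log2 fold changes of -0.70 and -1.38. SLC2A4 was low, at 2.80 ± 0.152 and 1.07 ± 0.110 CPM (SD, n = 3), from 19 to 73 counts per library.

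A list of 13 genes covered the entry of pyruvate into mitochondria and its use there. Of these, 3 fell (23.1%, beside 8.39% of all tested genes) and 0 rose (beside 7.57%). The pyruvate carrier genes MPC1 and MPC2 did not pass the test, with log2 fold changes of 0.20 and 0.04 (adjusted p 0.0957 and 0.758). The 3 that fell were PDK4, PDK2 and PDPR, regulators of pyruvate dehydrogenase. PDK4 was 5.69 ± 0.755 and 3.11 ± 0.418 CPM (SD, n = 3; log2 fold change -0.89, adjusted p 2.97e-05), PDK2 had a log2 fold change of -0.43 and PDPR, a regulatory subunit of pyruvate dehydrogenase phosphatase, of -0.51. With PDK1 and PDK3, all 4 pyruvate dehydrogenase kinase genes had an adjusted p under 0.05 and a log2 fold change below zero. This held in the fit to all 6 libraries, beside 14.3% of all tested genes. Of the 4, 2 were past 1.3-fold, and the adjusted p of PDK1 reached 0.0934 over the alternatives. This group was joined from separate lists and was not among those planned. In the list of 13 genes, 7 lay below zero and 6 above. In the pentose phosphate pathway 1 of 8 tested genes was called, which fell (12.5%, beside 8.39% of all tested genes). This gene was RPE, at 131.4 ± 7.51 and 99.5 ± 3.68 CPM (SD, n = 3; log2 fold change -0.40, adjusted p 7.17e-05), and the call was lost without control 2 or KO 2.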

How the data were processed

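RNA-seq counts were analysed for 3 control and 3 FOXC1 KO libraries of J82, grouped by sample title. Per the labels and the study's methods, the authors aligned paired reads to hg19 with STAR and assigned them to GENCODE version 19 genes with featureCounts, and the deposited values are raw counts per gene. Tool versions, the strand setting and the treatment of reads with several matches are not given in the sources used here, so overlapping, antisense and near-identical genes are uncertain. Of 57820 identifiers, 55538 (96.05%) matched a later GENCODE release placed on GRCh37, which gave symbols, coordinates and exon lengths. Levels per kilobase and gene overlaps therefore rest on that release and not on version 19. The exon length of a gene joins the exons of all its annotated transcripts, so shares per kilobase are not exact shares of transcripts.

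Genes were kept with filterByExpr (15647 genes), normalized with TMM and tested in edgeR 4.0.16 (R 4.3.3) by the robust quasi-likelihood F test, with group as the only term and Benjamini-Hochberg adjustment over all tested genes. Calls required more than 1.3-fold at an adjusted p below 0.05, the thresholds of the study's methods, which used DESeq2 (here an alternative, version 1.42.0). Standard errors came from the F statistic. CPM used TMM-scaled library sizes. Between libraries of a group, chi-square per gene was 2.94 to 10.11, so no library was a copy of another. The procedure was tested on simulated counts.

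Values in each library are given for called genes and for the gene with the highest CPM in each role, and at most 5 called genes with the smallest p are named from each wider list, of which 1 is not reported here. The 46 genes, the lists, the tests and this rule were chosen with earlier results of these data known. Promoter windows came from RefSeq, with entries for 39 of the 46 genes (not NDRG1, ARNT2, SLC16A1, VEGFA, VHL, SLC2A3 and BNIP3L). Alternatives were added pseudogene counts, other fold thresholds, omission of each library in turn, a block for the replicate number, thinning to equal depth, a filter at a mean count of 50 or none, unscaled library sizes, RLE size factors and DESeq2.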

Additional observations from a re-analysis of the deposited data

How the results depend on the processing

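The 10 called genes were also called, in the same direction, with added pseudogene counts, the replicate block, thinning, a filter at a mean count of 50 or none, unscaled library sizes, RLE size factors and DESeq2. Over the 14 alternatives that kept the 1.3-fold threshold, 137 of 140 results for these genes kept their call, and the other 3 are those of SLC2A1 and SLC2A3 given above. With no fold change threshold, 2233 genes were lower and 2372 higher, with 10 of the 46 genes lower and 10 higher, and with 22 of the wider lists lower and 14 higher. At a fold change over 2, 321 genes were lower and 316 higher, with 1 of the 46 genes lower and 3 higher, so that 4 of the 10 calls were kept, and with 2 of the wider lists lower and 0 higher. Leaving out each library gave 2 to 5 of the 46 genes lower and 6 to 8 higher, with the 5 reached without KO 1.

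Log2 fold changes near zero changed sign when a library was left out: HIF1A ranged from -0.13 to 0.046, CA12 from -0.11 to 0.033, BNIP3 from -0.020 to 0.093, SLC16A3 from -0.074 to 0.063, GPI from -0.11 to 0.030, PFKFB3 from -0.031 to 0.071, ENO1 from -0.10 to 0.034 and PKM from -0.15 to 0.0027. The log2 count ratio of PFKM to PFKL ranged from -0.062 to 0.091 and the log2 count ratio of LDHA to LDHB from -0.0797 to 0.0441. The median log2 fold change ranged from -0.034 to 0.052 for the HIF subunits, from -0.020 to 0.066 for the transporters and from -0.059 to 0.025 for all 46 genes, so these medians have no stable sign, while that of the hypoxia targets was 0.038 to 0.160 and that of the glycolytic enzymes -0.142 to -0.025. What causes these sign changes was not tested.

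The replicate numbers were not taken to pair libraries, because same-numbered libraries correlated at -0.0618, -0.218 and 0.117 in their deviations from the group means. The replicate block gave 1351 genes lower and 1200 higher, and 10 of the 46 genes were called, all 10 shared. With the block the adjusted p was 0.0385 for EGLN2, 0.0722 for HK2 and 0.0507 for PFKFB4. The called genes ANGPTL4, ARNT2, SLC2A3, EGLN3, CA9 and ANKRD37, and CA12, had 48 to 259 counts per library.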

Other observations

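An overlapping gene with counts was found for 17 of the 46 genes and a pseudogene named after the gene for 18, together 27 genes, of which 5 were called (EGLN3, CA9, ANKRD37, ALDOC and SLC2A3). Of the glycolytic enzymes, PGAM1 had pseudogenes with counts equal to 0.932% of its own, TPI1 0.224%, LDHA 0.194% and GAPDH 0.133%. RSKR overlaps ALDOC on the same strand, with 114 counts over the 6 libraries against 1666 for ALDOC and a log2 fold change of -0.05 (adjusted p 0.927 by edgeR). PNMA2 overlaps BNIP3L on the opposite strand, with 4602 counts against 14960 and a log2 fold change of -0.33 (adjusted p 0.00268). SPSB2 overlaps TPI1 on the opposite strand, with 1763 counts against 186525 and a log2 fold change of -0.42 (adjusted p 0.00275).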
